A study of Rattus norvegicus with 18 samples.

Results

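Negative acute phase proteins are proteins that the liver secretes into the blood and whose making is known to slow in inflammation, while that of the positive acute phase proteins goes up. The set examined here was listed by symbol and held 10 genes, Alb, Ttr, Tf, Rbp4, Ahsg, Apoa1, Apoa4, Igf1, Igfals and Gc. Of these, 8 had a probe set that the array annotation assigns to 1 gene alone, out of 18166 genes with such a probe set and 36685 probe sets in all. Both probe sets of Tf (transferrin) are also assigned to Srprb, and Apoa1 was not analysed here, so neither is given a value.

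The 18 arrays held total RNA from livers of adult male Sprague-Dawley rats, 1 array per rat and 3 rats in each of 6 groups. Naive rats had neither liver resection nor transfusion. In the PHx group 50% of the liver mass was removed (partial hepatectomy, PHx) and the remaining liver was taken on day 1. The bleeding group lost 3 ml of blood besides the PHx, and the F-RBC, S-RBC and HAES groups had PHx, the same bleeding and then an infusion of fresh red blood cells, of red blood cells stored for 7 days or of 10% HAES, respectively. All 5 operated groups thus shared the PHx and differ from naive rats by anesthesia and surgery together, and a group given fluid without PHx was not analysed here.

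In the liver these genes are active chiefly in hepatocytes, under factors such as HNF1, HNF4, FOXA and C/EBP, which keep the hepatocyte program going. Cytokines such as IL-6 and IL-1 shift that program toward the positive acute phase proteins. Igf1 and Igfals answer to growth hormone, and resistance of the liver to growth hormone is a known feature of inflammation.

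The level of a gene is given as the deposited intensity of its probe set, and all tests used log2(intensity + 16), so a log2 fold change is on that scale. Alb had the highest mean of all probe sets and was the brightest on 18 of 18 arrays. Gc ranked 17, Ttr 42, Ahsg 71, Rbp4 75 and Igf1 138 of 36685 probe sets, whereas Igfals ranked 2499 and Apoa4 3782. Array medians ran from 16.1 to 18.6 in naive and 17.6 to 19.1 in PHx rats, and reached 21.4 in bleeding, 22.7 in F-RBC, 20.1 in S-RBC and 23.02 in HAES rats. Naive replicate 1 had the lowest median and was the lowest of its group for 8 of 8 genes, and S-RBC replicate 1 correlated least with the other arrays (at best r = 0.938 over all probe sets). Liver tissue was borne out by its hepatocyte markers, of which 6 of 7 (Alb among them) were measured, at a mean log2 level of 11.16 to 11.40 in the 6 groups. In whole liver tissue, fewer cells of a type and less RNA per cell cannot be told apart.

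Few differences in these genes passed the test 1 day after PHx. Of 96 tests, 8 genes in 12 comparisons, 2 passed an adjusted p under 0.05 (limma with Benjamini-Hochberg adjustment over all probe sets), Ttr in F-RBC rats and Igfals in S-RBC rats, both lower than in naive rats. At an unadjusted p under 0.05 there were 18, where 10.5% (PHx against naive) to 24.3% (F-RBC against naive) of all probe sets had such a p, depending on the comparison. Across the 6 groups the moderated F test called Igfals (adjusted p = 0.023) and 6.59% of all probe sets. For Apoa4 and Ttr the adjusted p was 0.082 and 0.114, and for the other 5 genes it lay between 0.457 and 0.705. Where groups are said not to overlap, that describes the arrays and is not a test, since groups of so few rats can separate by chance. Ttr, for example, did not overlap between bleeding and PHx rats, at an adjusted p of 0.827 (limma). The share of all probe sets that separate was not counted for any pair of groups. The same livers had large changes in positive acute phase genes, which are given further on.

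**Figure D1:**
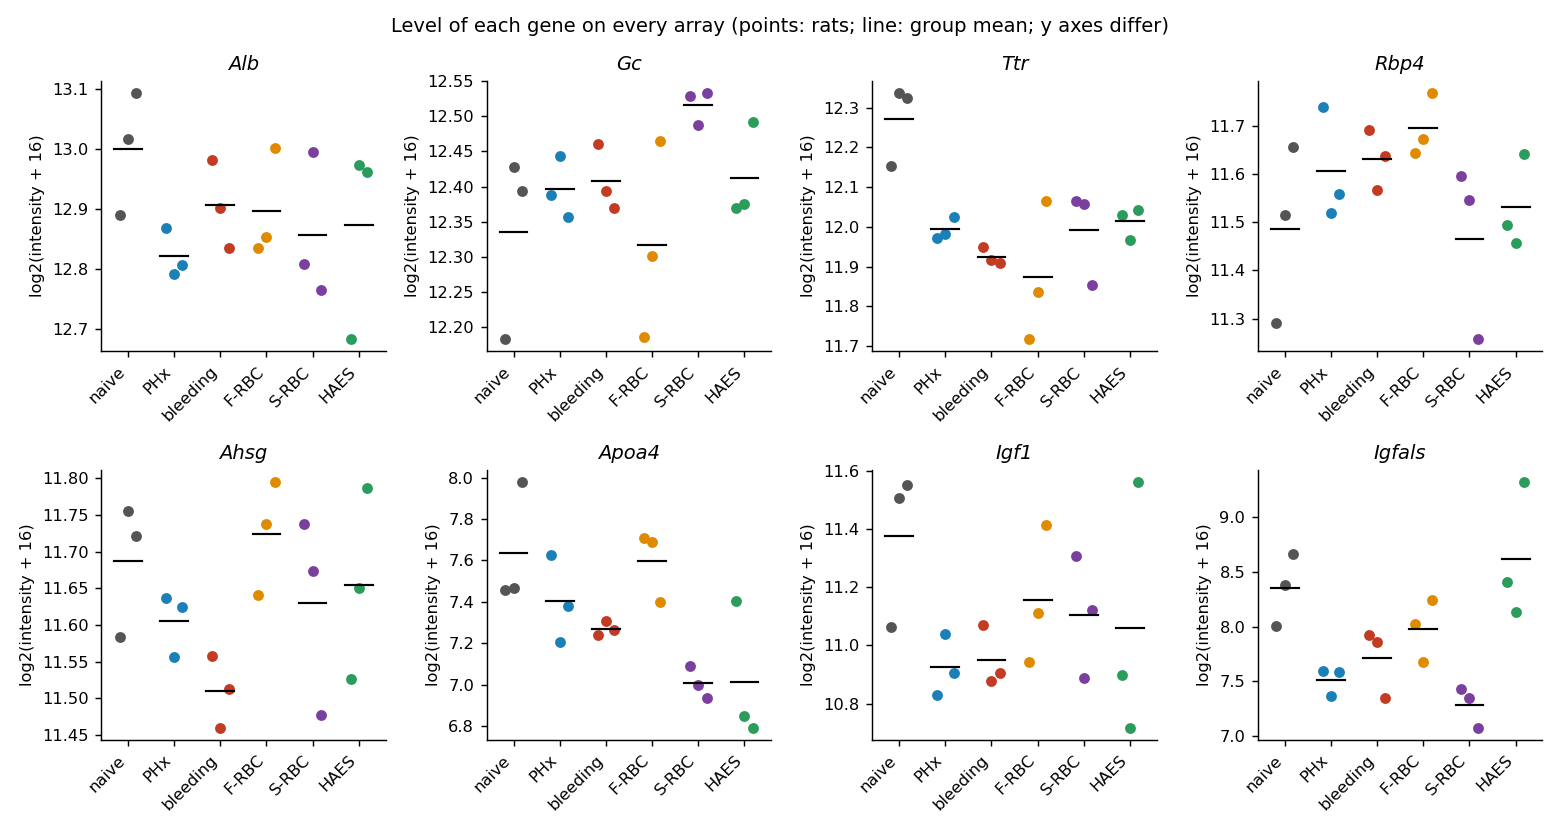
Level of the 8 genes, as log2(intensity + 16), on each of the 18 arrays, with 1 point per rat and a line at the mean of each group of 3; each panel has its own y axis. All naive points for Ttr lie above all other points, and the Igfals points of S-RBC rats lie below those of naive, F-RBC and HAES rats.

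Alb encodes albumin, the most abundant plasma protein, which carries fatty acids, hormones and drugs and holds water in the vessels. Its intensity was 7575, 8268 and 8721 in naive, 7460, 7076 and 7150 in PHx, and 8075, 7632 and 7292 in bleeding rats. After infusion it was 7294, 7382 and 8189 in F-RBC, 7161, 8146 and 6943 in S-RBC, and 6562, 8028 and 7958 in HAES rats. The 3 PHx livers were below the 3 naive livers, and the other operated groups overlapped with naive. The mean was highest in naive rats (8188 ± 577, SD, n = 3) and lowest in PHx rats (7228 ± 204), a log2 fold change of -0.18 (95% CI -0.38 to 0.03, adjusted p = 0.564, limma). Against naive rats the other 4 values were between -0.14 and -0.09, and the interval nearest to a large fall reached -0.35 in S-RBC rats. Alb sits at the top of the intensity range, where an array may compress differences, and that was not tested.

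Gc encodes the vitamin D-binding protein, a relative of albumin that also takes up actin set free by dying cells. Its intensity was 4633, 5493 and 5364 in naive, 5345, 5552 and 5229 in PHx and 5618, 5365 and 5277 in bleeding rats. It was 4642, 5028 and 5635 in F-RBC, 5893, 5727 and 5910 in S-RBC and 5277, 5296 and 5746 in HAES rats. S-RBC livers were therefore the highest group, with no overlap with naive, PHx, bleeding or F-RBC livers, but none of these differences passed the test. The difference from F-RBC rats was 0.20 (95% CI 0.01 to 0.39, adjusted p = 0.256) and that from naive rats 0.18 (-0.01 to 0.38, adjusted p = 0.318). Of the other albumin family genes, Afm (afamin, a vitamin E carrier) was at 1110, 1556 and 1748 in naive and at 936, 689 and 777 in PHx livers, without passing the test, and Afp (alpha-fetoprotein) stayed between 24 and 49 on all arrays.

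The sequence before the start of Alb and Gc is shown because it carries the letters of the HNF1 half-site. Each line runs 5′ to 3′ from 250 bases before a transcript start to 50 bases after it, from RefSeq on GRCr8, at chr14:17906930-17907229 (minus strand) for Alb and chr14:18916005-18916304 (plus strand) for Gc. Capitals mark GTTAAT and, in Alb, a C/EBP match to TTGCNNAA on the other strand.

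Alb: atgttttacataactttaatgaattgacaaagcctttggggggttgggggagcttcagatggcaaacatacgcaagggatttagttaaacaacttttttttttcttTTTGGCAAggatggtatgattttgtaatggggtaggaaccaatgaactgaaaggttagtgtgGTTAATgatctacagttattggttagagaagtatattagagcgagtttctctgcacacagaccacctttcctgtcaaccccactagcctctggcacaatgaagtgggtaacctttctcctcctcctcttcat

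Gc: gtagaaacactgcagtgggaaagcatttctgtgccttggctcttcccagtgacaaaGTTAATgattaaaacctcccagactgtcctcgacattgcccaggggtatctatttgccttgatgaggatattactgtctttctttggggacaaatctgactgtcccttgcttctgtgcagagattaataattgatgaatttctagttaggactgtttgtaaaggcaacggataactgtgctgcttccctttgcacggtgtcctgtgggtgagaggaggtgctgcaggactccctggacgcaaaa

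GTTAAT begins 82 bases before the start in Alb and 194 bases before it in Gc. On either strand it was present in 7.37% of 27457 rat promoters of the same 300 bases, and in these 2 of the 8 measured genes. None of the 8 held the FOXA letters TGTTTAC (3.76% of promoters), the HNF4 letters CAAAGTCC (1.38%), the C/EBP palindrome TTGCGCAA (0.197%), the STAT5 letters TTCNNNGAA (8.68%) or the STAT letters TTCNNGGAA (4.87%). A match is a description of the letters and no match says nothing of a factor.

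Ttr encodes transthyretin, which carries thyroxine and, bound to retinol-binding protein, vitamin A. Its intensity was 4541, 5155 and 5114 in naive livers. It was 4005, 4028 and 4154 after PHx, 3939, 3851 and 3833 after bleeding, 3353, 3641 and 4269 in F-RBC, 4267, 4249 and 3685 in S-RBC, and 4168, 3987 and 4206 in HAES rats. All 15 livers after PHx were thus below the lowest naive liver, which held for none of the other 7 genes and for 221 of all probe sets (0.602%). The fall in F-RBC rats was -0.40 (SE 0.099, 95% CI -0.61 to -0.19, 0.759-fold, adjusted p = 0.027). In the other groups the values were -0.35 after bleeding (adjusted p = 0.111), -0.28 after PHx (0.286), -0.28 in S-RBC (0.143) and -0.26 in HAES rats (0.214), so that the 95% intervals of the 5 comparisons overlapped. Among the operated groups no difference passed in the 7 comparisons made, the values lying between -0.12 and 0.12. The call in F-RBC rats was lost without naive replicate 2 or 3 or F-RBC replicate 1 or 2 (adjusted p = 0.075 to 0.1004), and with an offset of 1 (0.0501).

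Rbp4 encodes retinol-binding protein, which leaves the liver in complex with transthyretin. Its intensity was 2488, 2908 and 3210 in naive, 3399, 2918 and 3001 in PHx, 3288, 3016 and 3168 in bleeding, 3181, 3248 and 3468 in F-RBC, 3076, 2972 and 2432 in S-RBC, and 2867, 2793 and 3179 in HAES rats. All operated groups overlapped with naive, and the log2 fold changes lay between -0.02 in S-RBC and 0.21 in F-RBC rats (adjusted p = 0.284 to 0.956). The 3 S-RBC livers were below the 3 F-RBC livers, by -0.23 (95% CI -0.47 to 0.02, adjusted p = 0.305). Of 9 measured partners of Rbp4, Ttr and Gc in retinol and vitamin D handling, none passed against naive rats. Lrat esterifies retinol for storage in stellate cells and was also counted as a marker of them. It was higher in F-RBC than in bleeding rats by 1.58 (adjusted p = 0.018), at 320, 536 and 438 against 149, 137 and 109. The 7 stellate markers, Lrat included, were at a mean log2 level of 7.03 against 6.47. Of the 7, only Lrat passed in that comparison, and a mean without it was not taken.

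Ahsg encodes fetuin-A, which keeps calcium phosphate from crystallizing in plasma. Its intensity was 3052, 3439 and 3361 in naive, 3169, 2994 and 3141 in PHx, 2999, 2801 and 2907 in bleeding, 3178, 3397 and 3537 in F-RBC, 3399, 3249 and 2835 in S-RBC, and 2934, 3197 and 3515 in HAES rats. The bleeding livers were the lowest group and lay below all naive and all F-RBC livers. The difference from naive was -0.18 (95% CI -0.39 to 0.03, adjusted p = 0.428), and F-RBC rats were above bleeding rats by 0.21 (95% CI 0.00 to 0.42, adjusted p = 0.365).

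Rbp4 and Ahsg deviated together within groups. After the group mean was taken off each array, their levels had r = 0.82 over the 18 arrays, as a description across arrays that share their overall brightness. Igf1 with Gc (0.82), Igf1 with Igfals (0.76), Ttr with Gc (0.73) and Ttr with Ahsg (0.71) were the next pairs, whereas Apoa4 had values of -0.28 to 0.32 with the other 7. Both Rbp4 and Ahsg hold TTGCNNAA on the other strand, as does Alb above, a pattern found in 10.5% of the promoters and in these 3 of the 8 genes. The windows, again from RefSeq on GRCr8, are chr1:245313502-245313801 for Rbp4 and chr11:91632534-91632833 for Ahsg, both on the minus strand, with the matches in capitals (and TATAAA, present in 14.3% of promoters, in Rbp4).

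Rbp4: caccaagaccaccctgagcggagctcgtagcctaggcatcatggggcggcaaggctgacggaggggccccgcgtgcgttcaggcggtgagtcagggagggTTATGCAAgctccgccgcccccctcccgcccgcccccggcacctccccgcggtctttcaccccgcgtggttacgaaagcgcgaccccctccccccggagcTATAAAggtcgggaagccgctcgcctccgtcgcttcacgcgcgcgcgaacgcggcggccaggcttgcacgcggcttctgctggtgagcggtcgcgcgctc

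Ahsg: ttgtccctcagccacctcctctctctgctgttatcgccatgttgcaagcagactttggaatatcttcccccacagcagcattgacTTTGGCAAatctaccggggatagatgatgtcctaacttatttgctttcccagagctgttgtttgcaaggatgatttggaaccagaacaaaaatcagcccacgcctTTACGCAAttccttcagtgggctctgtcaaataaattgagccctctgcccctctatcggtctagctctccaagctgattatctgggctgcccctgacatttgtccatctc

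The matches begin 150 bases before the start in Rbp4, 165 and 60 bases before it in Ahsg and 144 bases before it in Alb. Ttr and Igfals, the genes past the threshold, held none of the letters searched in their windows, and neither did Apoa4 or Igf1.

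**Figure D2:**
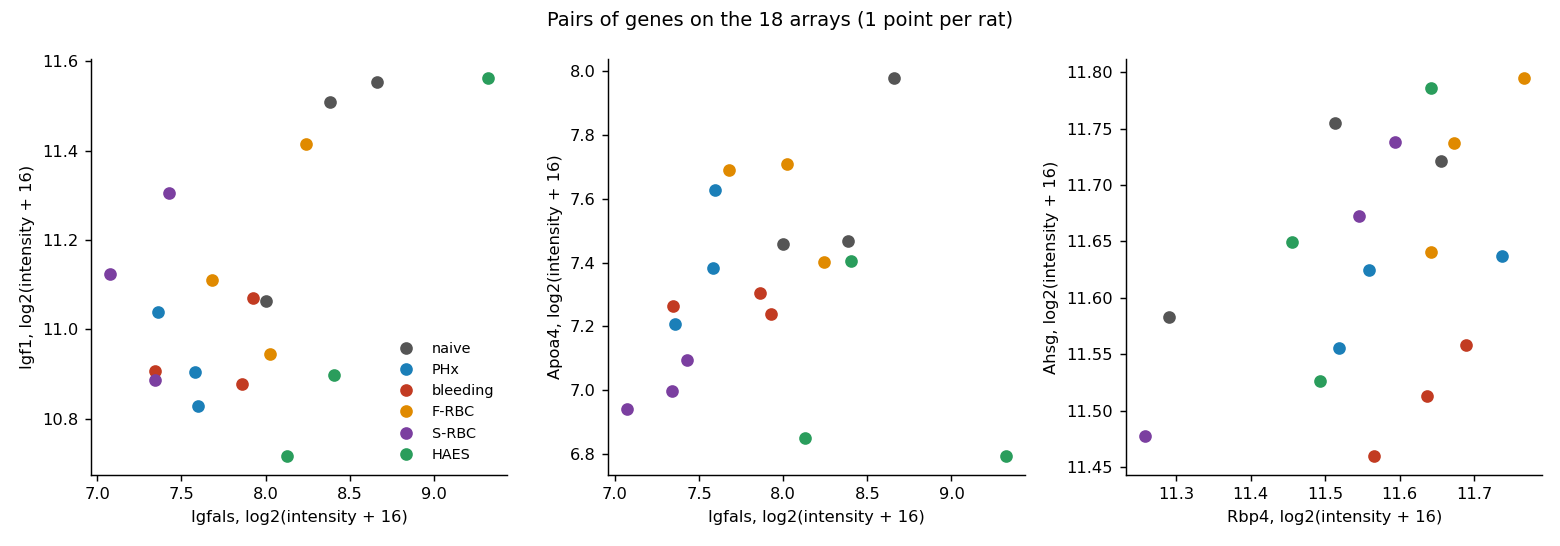
Levels of 3 pairs of genes on the 18 arrays, on the log2(intensity + 16) scale for both axes, with 1 point per rat coloured by group. Igf1 and Igfals as well as Ahsg and Rbp4 vary together within groups (r = 0.76 and 0.82 after the group means are removed), while S-RBC rats have the lowest group means of both Igfals and Apoa4, and HAES rats the highest of Igfals.

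Apoa4 encodes apolipoprotein A-IV, a lipoprotein part that in the rat is made in intestine and liver. Its intensity was 160, 161 and 236 in naive, 182, 132 and 151 in PHx, 135, 142 and 138 in bleeding and 193, 190 and 153 in F-RBC rats. It was 121, 112 and 107 in S-RBC and 153, 99 and 95 in HAES rats. The S-RBC livers were below all naive, PHx, bleeding and F-RBC livers. None of the differences passed the test. They were -0.63 in S-RBC rats against naive (95% CI -1.01 to -0.24, adjusted p = 0.073), -0.62 in HAES rats against naive (-1.01 to -0.23, 0.089) and -0.59 between S-RBC and F-RBC rats (-0.98 to -0.20, 0.114). F-RBC rats were close to naive rats, at -0.04, with an interval of -0.42 to 0.35.

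Of 11 genes measured that work with the apolipoproteins, Mttp, which loads lipid onto nascent lipoproteins, rose in F-RBC (1.23, adjusted p = 0.0096) and S-RBC rats (1.11, 0.019) against naive. Its intensity was 247, 312 and 317 in naive, 642, 752 and 710 in F-RBC and 846, 781 and 405 in S-RBC livers. Lipc, the hepatic lipase, fell in S-RBC rats (-0.68, adjusted p = 0.041), a call kept in 16 of 28 alternatives. The mean log2 level of Lipc was 9.64 in naive, 8.90 in PHx, 8.89 in bleeding, 9.07 in F-RBC, 8.95 in S-RBC and 9.05 in HAES rats. All operated groups were thus below naive, and PHx and bleeding rats were lower than S-RBC rats. None of the 11 passed in PHx, bleeding or HAES rats. Apoc2, an activator of lipoprotein lipase, differed across the 6 groups (moderated F, adjusted p = 0.034) and was at 1804 to 2188 in PHx against 2624 to 3478 in naive livers.

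Igf1 encodes insulin-like growth factor 1, the growth hormone-driven hormone that the liver releases, and Igfals the acid-labile subunit that holds it in the circulation in a complex with Igfbp3. Igf1 was at 2125, 2896 and 2989 in naive, 1803, 2089 and 1902 in PHx, 2134, 1865 and 1903 in bleeding, 1954, 2194 and 2715 in F-RBC, 2516, 1878 and 2215 in S-RBC, and 1891, 1667 and 3007 in HAES rats. PHx livers were below all naive livers, and HAES replicate 3 was the highest of all 18 arrays. The log2 fold changes against naive were -0.45 after PHx (95% CI -0.86 to -0.04, adjusted p = 0.413), -0.42 after bleeding, -0.32 in HAES, -0.27 in S-RBC and -0.22 in F-RBC rats, and none passed.

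Igfals had the widest spread of group means among the 8 genes, 1.34 on the log2 scale, with Apoa4 next at 0.63. Its intensity was 240, 318 and 389 in naive, 178, 148 and 175 in PHx, 227, 216 and 146 in bleeding, 244, 189 and 286 in F-RBC, 156, 146 and 119 in S-RBC, and 323, 264 and 625 in HAES rats. Ordered by mean, the groups ran from S-RBC (140 ± 19.3, SD, n = 3) through PHx (167 ± 16.4), bleeding (197 ± 43.8), F-RBC (240 ± 49.0) and naive (316 ± 74.3) to HAES (404 ± 194). S-RBC and PHx overlapped, as did PHx and bleeding, bleeding and F-RBC, F-RBC and naive, and naive and HAES. All S-RBC livers lay below all naive, F-RBC and HAES livers.

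Igfals fell in S-RBC rats against naive by -1.07 (SE 0.26, 95% CI -1.62 to -0.51, 0.477-fold, adjusted p = 0.034). In PHx rats the difference was -0.84 (-1.39 to -0.28, adjusted p = 0.210) and in bleeding rats -0.64 (-1.19 to -0.08, 0.263). It was -0.37 in F-RBC (-0.92 to 0.19) and 0.27 in HAES rats (-0.28 to 0.83). HAES rats were above bleeding rats without overlap, by 0.91 (0.35 to 1.46, adjusted p = 0.091), and S-RBC rats were below F-RBC rats without overlap, by -0.70 (-1.26 to -0.15, 0.169). The call in S-RBC rats was lost without naive replicate 2 or 3 or any 1 of the S-RBC arrays (adjusted p = 0.062 to 0.116). Without HAES replicate 3, the difference of HAES from bleeding rats was 0.56 and that from naive rats -0.08.

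Of 15 other genes of the growth hormone and IGF axis, 1 passed against naive, the binding partner Igfbp3, in bleeding rats, at -1.16 (adjusted p = 0.035), a call lost without any 1 of the naive or bleeding arrays. In rat liver Igfbp3 is known to come from non-parenchymal cells. Its intensity was 287, 349 and 382 in naive, 268, 231 and 229 in PHx, 142, 117 and 173 in bleeding, 198, 190 and 342 in F-RBC, 248, 170 and 267 in S-RBC, and 162, 177 and 286 in HAES rats. Bleeding and naive livers did not overlap, and the difference between bleeding and PHx rats passed no test. Stat5b, the transcription factor below the growth hormone receptor, stayed between 86 and 145 on all arrays. Socs3, an inhibitor of that signal, ranged from 26 to 249, with no difference from naive (118, 38 and 106) past the threshold. The F-RBC livers (38, 61 and 45) were below all PHx, bleeding and S-RBC livers, and HAES livers (26, 41 and 71) had the lowest group mean of Socs3.

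**Figure D3:**
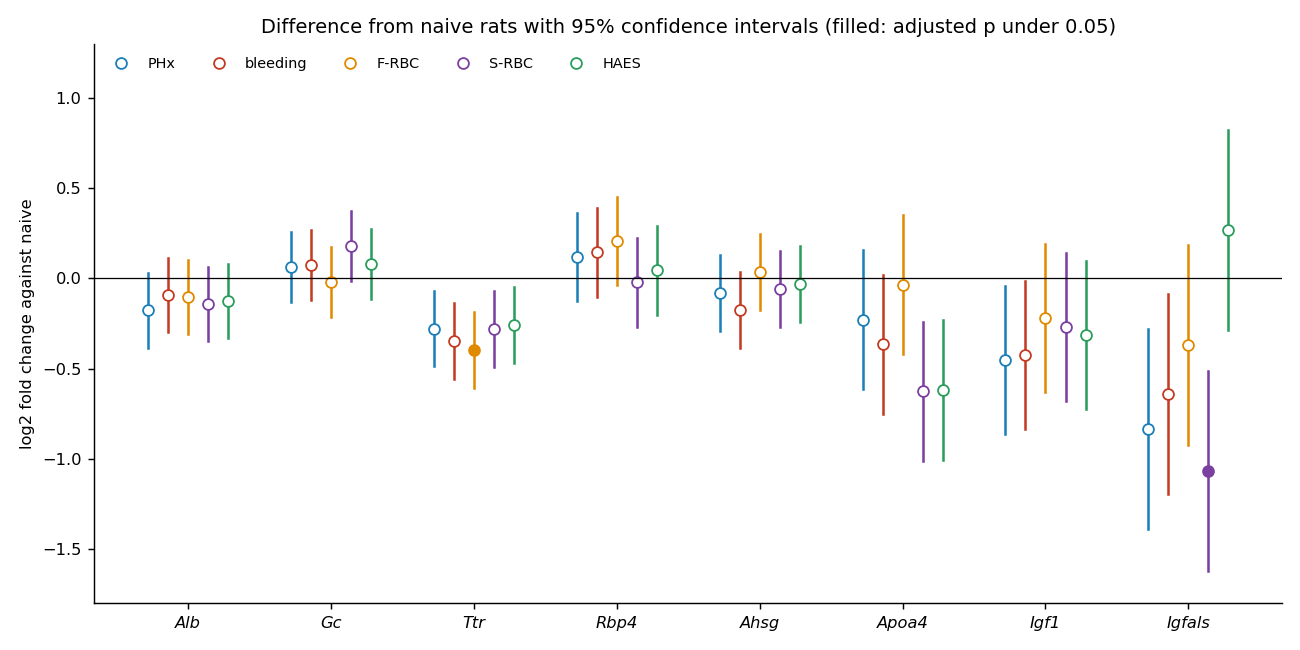
Log2 fold change of each of the 8 genes in the 5 operated groups against naive rats (y axis), with 95% confidence intervals from limma as bars; filled points have an adjusted p under 0.05. The filled points are Ttr in F-RBC (-0.40) and Igfals in S-RBC rats (-1.07), and the Ttr intervals of all 5 groups lie below 0.

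Each comparison can be read against all probe sets. Against naive rats, 0 of 8 genes were called after PHx (0.346% of all probe sets), 0 after bleeding (0.919%), 1 in F-RBC (6.17%), 1 in S-RBC (3.37%) and 0 in HAES rats (2.62%). At an unadjusted p under 0.05, 3, 3, 1, 3 and 2 of the 8 differed, all lower than naive, against 10.5%, 15.02%, 24.3%, 17.6% and 14.9% of all probe sets. The values were below naive for 6, 6, 6, 7 and 5 of the 8 genes. Their medians were -0.20, -0.26, -0.07, -0.21 and -0.08, beside 0.03, 0.06, 0.14, 0.06 and 0.05 for all probe sets. Against naive rats, bright probe sets were called more often than all probe sets. Of the 500 brightest, with these genes left out, 3.2% were called after PHx, 5.2% after bleeding, 25.4% in F-RBC, 16.8% in S-RBC and 12.2% in HAES rats. The medians of these 500 were 0.05, 0.04, 0.03, 0.12 and 0.03 in the same order. The 5 comparisons share the naive arrays, so they are not independent of each other.

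To see what bleeding added, the bleeding group was compared with PHx. It gave 0 calls among the 8 genes and 0% among all probe sets, with 0 of the 8 but 11.2% of all probe sets at an unadjusted p under 0.05, and values between -0.14 and 0.20. Against PHx rats, 0 of 8 were called in F-RBC (0.172% of all) and S-RBC rats (0.733%). Against bleeding rats, 0 of 8 were called in F-RBC (1.21%), S-RBC (2.06%) and HAES rats (1.81%). S-RBC against F-RBC rats, the comparison of storage time, gave 0 of 8 calls (0.496% of all probe sets), and 3 of 8 (Apoa4, Igfals and Gc) had an unadjusted p under 0.05, as did 18.5% of all probe sets, with Apoa4 and Igfals lower and Gc higher with stored cells. Over the 8 genes that comparison had a median of -0.07, as did all probe sets, whereas the 500 brightest without these genes had 0.12.

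The positive acute phase genes of the same livers give the contrast. Of 17 measured, 7 rose and 0 fell after PHx, 8 and 0 after bleeding, 8 and 1 in F-RBC, 13 and 0 in S-RBC, and 8 and 0 in HAES rats, with medians of 0.48, 0.46, 0.41, 0.57 and 0.41. Orm1 (alpha-1-acid glycoprotein) rose by 2.35, 2.50, 1.90, 2.32 and 2.15 in this order of groups, from 616, 802 and 854 in naive livers to between 2513 and 4521 in all others. Lcn2 (lipocalin 2) went from 11, 12 and 33 in naive livers to between 984 and 3371 in all others, and A2m (alpha-2-macroglobulin) and Lbp (LPS-binding protein) passed in all 5 groups too, at 3.48 and 2.83 after PHx. The fibrinogen genes Fga, Fgb and Fgg passed against naive in S-RBC rats, by 0.43, 0.40 and 0.30 (Fgg in 7 of 28 alternatives), and none of them passed between S-RBC and F-RBC rats (adjusted p = 0.709, 0.385 and 0.132). The gene that fell in F-RBC rats was Apcs, serum amyloid P (-0.71, adjusted p = 0.035). None of the 17 passed in the 7 comparisons among operated groups.

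**Figure D4:**
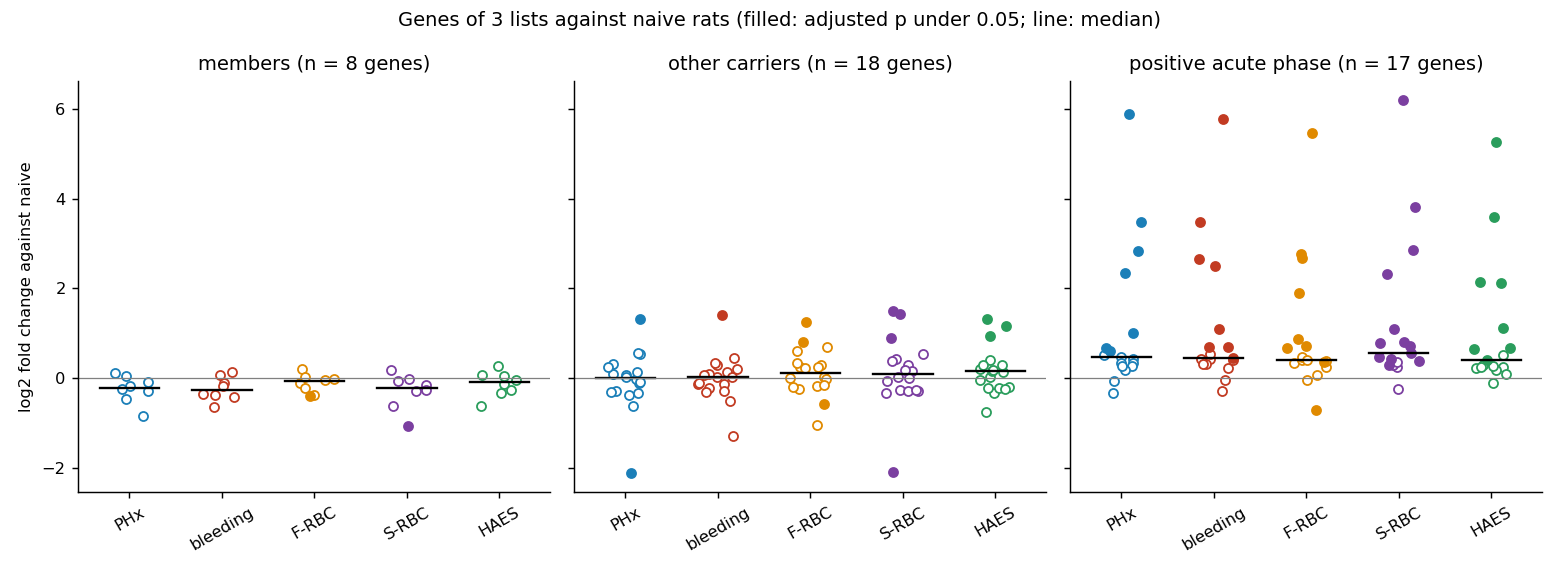
Log2 fold change against naive rats (y axis, same scale) of the 8 negative acute phase genes, of 18 other carriers and of 17 positive acute phase genes, by operated group. Points are genes, filled where the adjusted p is under 0.05, and lines are medians. The 8 genes lie between -1.07 and 0.27, while the third panel reaches 6.20 (Lcn2 in S-RBC rats).

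Among 18 other plasma carriers and secreted proteins measured, which the list holds as falling in inflammation, 1 rose and 1 fell after PHx, 1 and 0 after bleeding, 2 and 1 in F-RBC, 3 and 1 in S-RBC, and 3 and 0 in HAES rats. Kng1 is 1 of those that rose in each group. Kng1 rose in all 5 operated groups by 1.24 to 1.49 (adjusted p = 4.47e-06 to 4.99e-05), from 1473, 1437 and 2050 in naive livers to between 3628 and 4850. It encodes kininogen, and its rat relative T-kininogen, a positive acute phase protein, has a closely similar sequence, so the probe set may read both. Serpina6, the corticosteroid carrier, fell after PHx (-2.11, adjusted p = 0.027) and in S-RBC rats (-2.08, 0.0062), from 597, 666 and 634 in naive to 84, 213 and 132 and to 173, 149 and 98. The call after PHx was kept in 21 of 28 alternatives, whereas that in S-RBC rats was kept in 28 of 28. The PHx call was lost with only the groups compared, with the replicate block, without any 1 of the naive arrays and without PHx replicate 1 or 3. Its other values were 392, 279 and 138 after bleeding, 403, 155 and 424 in F-RBC and 278, 370 and 482 in HAES rats, all below naive without passing. Serpina6 was thus the carrier with the steepest fall, below any of the 8 genes.

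Serpina7 carries thyroxine, as Ttr does. It rose in S-RBC (1.43, adjusted p = 0.0041) and HAES rats (1.16, 0.016) against naive, and in both against bleeding (1.39, 0.0094, and 1.12, 0.030). Its intensity was 93, 90 and 80 in naive, 251, 235 and 305 in S-RBC and 198, 188 and 267 in HAES rats. It was 143, 114 and 147 in PHx, 102, 148 and 223 in F-RBC and 104, 120 and 58 in bleeding rats. The PHx and F-RBC livers were thus above all naive livers too, without passing. Cpn2, a subunit of carboxypeptidase N, which clips kinins and complement fragments, rose in F-RBC (0.80), S-RBC (0.89) and HAES rats (0.94). In PHx (272, 277 and 190) and bleeding rats (207, 189 and 201) it was also above all naive livers (143, 158 and 179), without passing. Pon1 (paraoxonase) fell in F-RBC rats (-0.58, adjusted p = 0.044), a call kept in 15 of 28 alternatives.

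Although Tf itself has no value, genes of iron handling around it were measured, 9 of 9. Tfrc, the transferrin receptor, rose after PHx (1.59, adjusted p = 0.048, kept in 8 of 28 alternatives), in F-RBC (1.55, 0.013) and in S-RBC rats (1.61, 0.011). It was at 95, 170 and 101 in naive, 383, 475 and 288 in F-RBC and 410, 486 and 306 in S-RBC livers. Tfr2, an iron sensor of hepatocytes, rose after bleeding (0.83, adjusted p = 0.037) and in S-RBC rats (0.85, 0.012), kept in 21 and 25 of 28 alternatives. Slc40a1, the iron exporter ferroportin, rose in F-RBC rats against naive (0.93, 0.027), kept in 23 of 28 alternatives. Against bleeding it was higher in F-RBC (1.23, 0.016) and HAES rats (0.97, 0.042), kept in 24 and 18 of 28. The HAES call was lost, among others, without any 1 of the bleeding or HAES arrays. Bleeding rats had the lowest group mean of Slc40a1, at 206, 174 and 131 against 164, 228 and 250 in naive livers. Bmp6, a ligand that tells hepatocytes of the iron load, differed across the 6 groups (moderated F, adjusted p = 0.039), at 11, 13 and 17 in bleeding against 20, 33 and 29 in naive livers, all close to the array medians.

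Factors known to drive these genes were measured as well. Of 13 hepatocyte transcription factors measured, Foxa2 (0.63, adjusted p = 0.034) and Nr2f2 (0.97, 0.044) rose in F-RBC rats against naive, calls kept in 17 and 10 of 28 alternatives. Both calls were lost with quantile normalization and with median, 75th percentile and bright probe set centring. Foxa2 had low intensities, at 25, 40 and 19 in naive and 56, 48 and 50 in F-RBC livers. Nr1h4, the bile acid receptor, was higher in S-RBC (1.01, adjusted p = 0.0094) and HAES rats (1.17, 0.0041) than in bleeding rats, at 550, 497 and 366 and 545, 474 and 552 against 250, 250 and 177. Bleeding rats had its lowest group mean. Nr1h4 was at 312, 464 and 392 in naive, 303, 345 and 340 in PHx and 392, 348 and 381 in F-RBC livers. No difference of Nr1h4 from naive passed. Of 9 genes of IL-6 and IL-1 receptors and signal, Il1r1 (1.08, adjusted p = 0.043) and Il1rn (1.12, 0.048) rose in S-RBC rats against naive, in 11 and 7 of 28 alternatives. Il1r1 was at 474, 302 and 775 in naive, 867, 999 and 1290 in S-RBC and 813, 956 and 1109 in bleeding livers. The bleeding livers were thus above all naive livers too, without passing. Of 5 other hepatocyte genes without such a role, Ttpa, the vitamin E transfer protein, fell in S-RBC rats (-0.52, adjusted p = 0.049, kept in 9 of 28 alternatives), and Cps1, an enzyme of the urea cycle, was higher in F-RBC than in bleeding rats (0.76, 0.015). Other genes with the smallest F-test p in these lists, Creb3l3, Irs1, Rdh10, Cyp2r1, Cyp27a1, Nr5a2, Il6, Stat3, Tat and Fabp1, had adjusted p of 0.079 (Stat3) to 0.295 (Tat).

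Marker genes of other cells differed between some groups. All 5 neutrophil markers were measured and had a mean log2 level of 4.91 in naive and 4.93 in HAES rats, and of 5.74 in PHx, 5.49 in bleeding, 5.30 in F-RBC and 5.50 in S-RBC rats. Summed over the 5, the log2 levels were 24.0 to 25.4 in naive livers. They were 28.2 to 29.5 in PHx, 26.0 to 29.4 in bleeding, 25.5 to 27.9 in F-RBC and 27.1 to 28.3 in S-RBC livers, without overlap with naive. HAES livers, at 24.3 to 24.9, overlapped with naive. Against naive, 2 of the 5 rose after PHx and 1 in S-RBC rats. The 7 Kupffer cell markers were at 7.18 in bleeding to 7.64 in PHx rats, with 0 of 7 past the threshold against naive in any group. Between S-RBC and bleeding rats, 1 of the 7 passed, higher in S-RBC rats. Of 6 sinusoidal endothelial markers 3 were measured, at 6.74 in bleeding and 7.01 in naive rats, and the 7 stellate cell markers were at 6.47 in bleeding to 7.13 in PHx rats. Against naive, 2 of the 7 stellate markers rose past the threshold in S-RBC rats and 1 each in PHx, F-RBC and HAES rats. The median log2 fold change of the 7 was below 0 in S-RBC (-0.18) and HAES rats (-0.10). It was above 0 in PHx (0.47) and F-RBC rats (0.29). In F-RBC rats 1 of the 3 endothelial markers rose, with a list median of -0.09. After PHx 1 of the 5 cholangiocyte markers rose, with a list median of 0.08. Lymphocyte and cholangiocyte markers, 6 of 6 and 5 of 5 measured, lay between 4.93 and 5.81. Their part in the values of the 8 genes was not tested.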

How the data were processed

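Liver RNA of 18 rats was measured on Affymetrix GeneChip Rat Gene 2.0 ST arrays. Each probe set has a linear intensity on each array in the table that the authors deposited, from 1e-05 to 8721. These were made with Affymetrix Power Tools and PLIER per the submitters' notes, whereas the methods list RMA besides PLIER. The sources used here give neither versions nor a genome build. Array medians differed, so the deposited values had not been brought to the same distribution, and 0 columns of samples were left unused. The number of arrays limits the precision.

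Gene symbols came from the array annotation, in which 18511 probe sets had 1 symbol, 575 several and 17599 none listed. Of the gene identifiers 18394 were found in the RefSeq table for GRCr8, which changed 0 symbols. Each measured gene of the set had 1 probe set. Promoters are those of the RefSeq table for GRCr8, searched for 8 patterns on both strands, where TTGCGCAA is a case of TTGCNNAA, and TTCNNGGAA of TTCNNNGAA.

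Group means of log2(intensity + 16) were fitted over 18 arrays with limma 3.58.1 in R 4.3.3 (a trended prior variance, 12 residual degrees of freedom). P-values are two-sided and adjusted by the Benjamini-Hochberg method over 36685 probe sets in each of 12 comparisons, and an adjusted p under 0.05 was called past the threshold. The fit was first tested on simulated data. Tables and figures used Python 3.11.15, pandas 2.3.3 and matplotlib 3.10.9.

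The genes and lists were chosen with earlier results of these data known. All measured genes of the set are named, and from each other list up to 4 genes with the smallest p of the moderated F test. Pon1, Apcs, Fga, Fgb and Fgg lie outside that rule and were named after their values were seen. Alternatives were offsets of 1 and 64, quantile normalization, median centring, leaving out the dimmer probe sets, array weights, only the groups compared, a block for the replicate number, the t-test of the methods and leaving out each array. Centring on the 75th percentile and on the 500 brightest probe sets was added after seeing the data. Counts out of 29 alternatives hold all of these. Counts out of 28, given for genes of the other lists, leave out the t-test. With Benjamini-Hochberg adjustment that t-test called 0 of all probe sets after PHx and 1 in S-RBC rats against naive. Labels call the replicates biological, 1 rat each.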

Additional observations from a re-analysis of the deposited data

How the results depend on the processing

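Against naive rats, Ttr was also called after bleeding (1 gene) under quantile normalization, median centring, bright probe set centring and array weights. In F-RBC rats the count of called genes was 0 with an offset of 1, with only the groups compared and with the methods' t-test, and 0 to 1 when an array was left out. In S-RBC rats it was 3 (Ttr, Apoa4 and Igfals) with quantile normalization and bright probe set centring, 0 with only the groups compared and the methods' t-test, and 0 to 2 when an array was left out. In HAES rats it was 1 with bright probe set centring and 0 to 1 with an array left out. For HAES against bleeding rats it was 1 (Igfals) with quantile normalization, median centring and 75th percentile centring. The F test over 6 groups called 2 genes (Ttr and Igfals) with quantile normalization, median centring or 75th percentile centring, 3 (with Apoa4) with bright probe set centring or array weights, and 1 to 2 with an array left out. Igfals was among them in each of these fits. The cause of these changes was not tested.

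Ttr in F-RBC and Igfals in S-RBC rats were each called in 22 of 29 alternatives (adjusted p = 0.0041 to 0.179 and 0.0048 to 0.294) and kept their direction in all, with log2 fold changes of -0.58 to -0.32 and -1.24 to -0.88. Same-numbered samples did not deviate together, with correlations of their deviations from -0.25 to 0.29 and 4 of 45 over 0.1, so the number was taken as a name only. With the replicate number as a block the adjusted p was 0.045 and 0.048, and the block changed no call of the 8 genes. The methods' t-test gave 20 of 96 tests at an unadjusted p under 0.05 and 0 after Benjamini-Hochberg adjustment. Median centring moved values of F-RBC against naive rats by -0.18, of bleeding against naive by -0.12, of F-RBC against PHx by -0.15 and of S-RBC against F-RBC by 0.12, whereas 75th percentile centring moved F-RBC against naive and against bleeding by -0.13 and -0.12, and bright probe set centring S-RBC against naive and bleeding by -0.14 and -0.11.

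Over all probe sets, after PHx 127 calls became 25 with only the groups compared and 306 with array weights, after bleeding 337 became 188 with the block and 1810 with array weights, in F-RBC rats 2264 became 1365 with bright probe set centring and 4361 with array weights, in S-RBC rats 1235 became 329 and in HAES rats 962 became 312 with only the groups compared. Between bleeding and PHx, 0 became 433 with array weights, and between S-RBC and F-RBC rats 182 became 0 with only the groups compared and 497 with array weights. By limma with all arrays kept, the 63 calls of F-RBC and 269 of S-RBC against PHx rats ran from 3 to 564 and from 86 to 434. The 443 of F-RBC, 757 of S-RBC and 663 of HAES against bleeding rats ran from 234 to 2462, 46 to 2253 and 338 to 1225. With 1 array left out, the calls against naive ran from 22 (without naive replicate 2) to 240 (without PHx replicate 2) after PHx, 64 (without bleeding replicate 3) to 645 (without S-RBC replicate 1) after bleeding, 554 (without naive replicate 1) to 3329 (without S-RBC replicate 1) in F-RBC, 445 (without naive replicate 1) to 1316 in S-RBC and 354 (without HAES replicate 3) to 1315 in HAES rats. Storage time (S-RBC against F-RBC) gave 2 to 4 calls without F-RBC replicate 1 or 2 or S-RBC replicate 1, but 690 when S-RBC replicate 3 was dropped. Bleeding against PHx gave 0 to 15.

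Small values that were past no threshold changed sign. With median centring, Ahsg in F-RBC rats was at -0.15, Rbp4 in HAES rats at -0.037 and Gc at -0.044 after bleeding and at -0.00328 in HAES rats. With 75th percentile centring Gc after PHx was at -0.020 and Ahsg in F-RBC rats at -0.089. With bright probe set centring Gc after PHx was at -0.0252, Ahsg in F-RBC rats at -0.036 and Rbp4 in HAES rats at -0.028. With 1 array left out, Gc ranged from -0.0146 to 0.108 after PHx, from -0.00267 to 0.120 after bleeding and from -0.0938 to 0.0478 in F-RBC rats. Ahsg ranged from -0.0139 to 0.0794 in F-RBC, from -0.111 to 0.0189 in S-RBC and from -0.0982 to 0.0315 in HAES rats. Rbp4 ranged from -0.119 to 0.0833 in S-RBC and from -0.0543 to 0.129 in HAES rats, Apoa4 from -0.124 to 0.136 in F-RBC rats and Igfals from -0.0820 to 0.515 in HAES rats. Quantile normalization sets the brightest probe set equal on all arrays, so Alb had no difference there. A second probe set of the same gene could not be tried, since each gene had 1. With 3 rats a group, the SE of a difference was 0.092 to 0.099 for Alb, Gc and Ttr, 0.18 for Apoa4, 0.19 for Igf1 and 0.26 for Igfals.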
